A study of Mus musculus with 4 samples.

Results

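The 9 myelin genes of oligodendrocytes described here are Mbp, Mag, Mog, Mobp, Cnp, Cldn11, Opalin, Mal and Ugt8a. The rule takes them by name and not by their values, and all 9 were found among the 18674 gene names of the deposited table. RNA was taken from the lumbar spinal cord of male mice aged 100 days and sequenced in 4 libraries. WT vehicle came from wild type mice given PBS, and WT + SD from wild type mice given spermidine (SD), a polyamine. G93A vehicle and G93A + SD came from G93A mice with the same injections, which were given 4 times a week for 30 days. G93A mice carry a human SOD1 transgene with the G93A mutation (H1 high-expresser strain, B6/SJLF1 background) and are a model of amyotrophic lateral sclerosis (ALS). The transgene is driven by the human SOD1 promoter and is not restricted to a cell type. How many animals went into a library is not given in the sources used here. The methods give the dose as 5 mg/kg, injected into the peritoneum, and in that section name saline as the vehicle. With 1 library per condition there is no replicate error for any difference and no p-value, and each fold change describes these libraries only. The depth was estimated at 36800000 to 38600000 sequenced fragments per library.

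Myelin is the spirally wrapped membrane of the oligodendrocyte, which insulates axons of the central nervous system and supports their metabolism. In compact myelin the layers are held together by proteins such as MBP, whereas cytoplasm remains in the inner (adaxonal) tongue, in the paranodal loops beside each node and in thin channels. The membrane is rich in cholesterol and in galactolipids, and the genes for its proteins and lipid enzymes are switched on together in the maturing cell by factors such as SOX10 and MYRF. Oligodendrocytes and the precursors that replace them are known to be affected in the spinal cord of SOD1 mutant mice.

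The promoters of the members that were highest and lowest in G93A relative to WT are shown so that their sequences can be read beside the values. They are the bases upstream of the RefSeq start site (GRCm38.p6), up to the first annotated exon, written 5′ to 3′ on the strand of the gene. Capitals mark matches on either strand to ACAAAG (the core of a SOX site), CTGGNAC (the core of a MYRF site), GGGCGG (a GC box) or CCAAT. Cldn11 is at chr3:31149670-31149919 (plus), Opalin at chr19:41077114-41077363 (minus), Mobp at chr9:120149492-120149706 (plus) and Ugt8a at chr3:125938653-125938902 (minus).
Cldn11: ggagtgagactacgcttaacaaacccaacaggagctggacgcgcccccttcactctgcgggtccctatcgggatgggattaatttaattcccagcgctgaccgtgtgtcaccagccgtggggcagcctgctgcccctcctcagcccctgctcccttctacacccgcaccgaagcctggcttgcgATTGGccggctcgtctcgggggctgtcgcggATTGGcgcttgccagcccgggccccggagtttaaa
Opalin: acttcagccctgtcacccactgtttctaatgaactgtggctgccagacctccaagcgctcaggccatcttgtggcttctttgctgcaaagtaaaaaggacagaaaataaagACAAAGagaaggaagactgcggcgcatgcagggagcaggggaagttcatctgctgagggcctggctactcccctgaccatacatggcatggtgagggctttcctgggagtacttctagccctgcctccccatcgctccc
Mobp: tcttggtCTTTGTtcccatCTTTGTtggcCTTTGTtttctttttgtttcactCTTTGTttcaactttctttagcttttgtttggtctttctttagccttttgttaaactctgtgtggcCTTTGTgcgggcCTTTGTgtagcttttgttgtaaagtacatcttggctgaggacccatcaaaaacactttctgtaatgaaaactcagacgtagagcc
Ugt8a: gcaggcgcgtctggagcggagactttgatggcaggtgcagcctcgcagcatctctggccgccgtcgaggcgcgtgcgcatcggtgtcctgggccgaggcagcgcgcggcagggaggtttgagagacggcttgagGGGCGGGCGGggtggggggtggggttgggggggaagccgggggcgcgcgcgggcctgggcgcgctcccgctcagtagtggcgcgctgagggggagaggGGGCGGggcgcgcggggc

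Mobp has the SOX core 6 times in this window, and it was the only one of 32851 windows of 250 bases with 6 or more. A SOX core was present at least once in 16.5% of all windows and in those of 4 of the 8 members with a window (Cnp, Mag, which has 3 annotated start sites, Mobp and Opalin). The MYRF core was found in Cnp, Mag and Mog, against 16.1% of all windows. Ugt8a has GGGCGG 3 times, with 2 of these overlapping, in a window of 76.8% G and C, while the Mobp window has 39.1% and the median of all windows was 52.4%. Cldn11 has CCAAT at 2 places, read on the opposite strand, 66 and 35 bases before the start site. GGGCGG was present in 32.7% and CCAAT in 33.8% of all windows, and CAGCTG (an E-box, 13.0% of all windows) and TATAAA (12.4%) in 0 of the 8 members with a window. These matches are descriptions of letters and were not tested as binding sites.

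The members lie on 8 chromosomes of GRCm38. Their positions are those of GENCODE M21: Mbp on chromosome 18 from 82475146 to 82585637 (plus strand), Mag on chromosome 7 from 30899176 to 30914873 (minus), Mog on chromosome 17 from 37010743 to 37023398 (minus), Mobp on chromosome 9 from 120149707 to 120181484 (plus) and Cnp on chromosome 11 from 100574904 to 100591729 (plus). Cldn11 lies on chromosome 3 from 31149920 to 31164324 (plus), Ugt8a on chromosome 3 from 125865271 to 125938619 (minus), Mal on chromosome 2 from 127633226 to 127656695 (minus) and Opalin on chromosome 19 from 41061710 to 41077113 (minus). Dnajc7 on the opposite strand is the only protein coding gene that overlaps a member, Cnp, and the exons of the listed transcripts overlap no exon of another gene for any member. Windows of 53 bases, the read length in the methods, were shared with other genes for 1.10% of the longest Mbp transcript, 0.186% of Mobp and none of the other 7. Only the longest listed transcript of each member was checked. For Mbp this was NM_001025245, which ends before the last exons of the gene, so those exons were not checked.

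The table names no unit, and its values were taken as RPKM (reads per kilobase of transcript, relative to the library total), which can be compared between genes because they are per length. Mbp, which encodes the basic protein that glues the cytoplasmic faces of compact myelin, had 4669 RPKM in WT vehicle and 4662 in WT + SD, against 3714 in G93A vehicle and 3575 in G93A + SD. It ranked 2nd among all names by its mean, and made up 70.2% to 74.4% of the summed level of the members. The sum over the 9 members was 6273 RPKM in WT vehicle and 6280 in WT + SD, against 5290 in G93A vehicle and 4988 in G93A + SD. As a share of the sum of all gene names this was 2.44% in both WT libraries, 1.91% in G93A vehicle and 1.79% in G93A + SD. Without Mbp the sums were 1604, 1618, 1576 and 1413 RPKM in the same order. The small difference between WT vehicle and G93A vehicle in this remainder holds differences in both directions. Cldn11 was at 195 RPKM in WT vehicle and 326 in G93A vehicle, and Mag and Opalin were slightly higher there. Mobp, Cnp, Mal, Ugt8a and Mog were lower. On the log2 scale Mobp (-0.45) and Ugt8a (-0.41) differed more than Mbp (-0.33). Fewer oligodendrocytes, less RNA in each of them and a larger share of RNA from other cells cannot be told apart in whole cord.

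**Figure D1:**
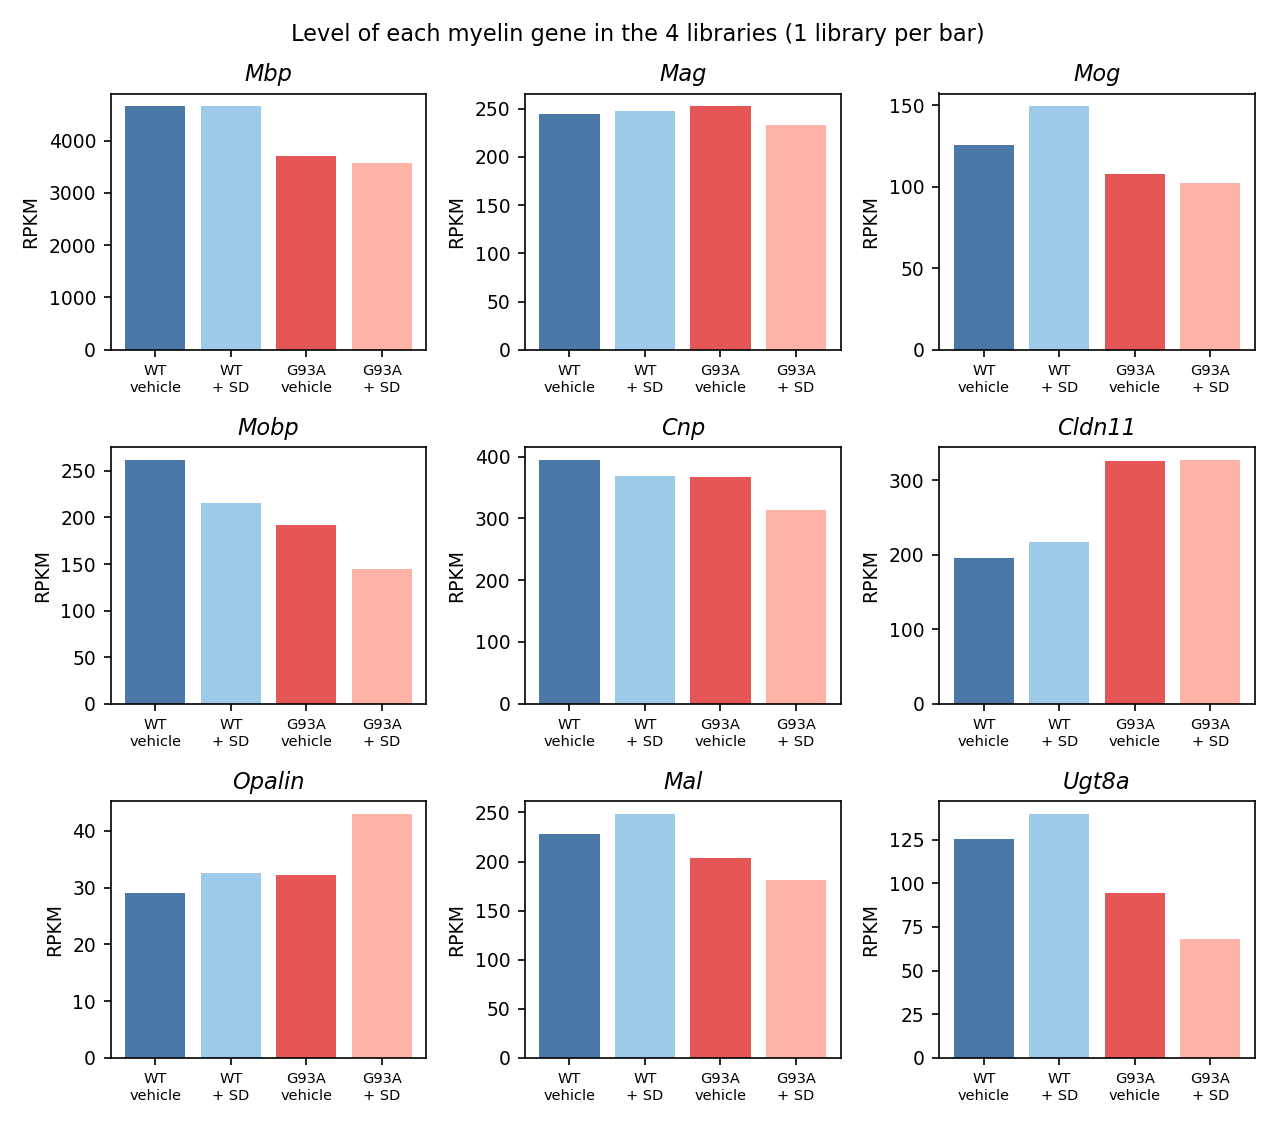
Level of each of the 9 myelin genes (RPKM, linear axis from 0) in each of the 4 libraries, with 1 library per bar and so no error bar. Ugt8a and Mobp were lowest in G93A + SD, at 68.0 and 145 RPKM, whereas Cldn11 was at 326 and 327 RPKM in the G93A libraries and at 195 and 217 RPKM in the WT libraries.

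The question of the genotype comparison is how the cord of G93A mice differs from that of WT mice under the same injection. In G93A vehicle against WT vehicle, 6 of the 9 members were lower and 3 higher, and their median log2 fold change was -0.16 (on the scale of RPKM + 0.1). The median was 0.046 over all names and -0.025 over the 964 names averaging 50 RPKM or more. Only Cldn11 reached 1.5-fold, the fold used in the study, so 1 of 9 members was called, against 19.7% of all names (14.4% higher and 5.31% lower) and 16.5% of the 964 names. Under SD, G93A + SD against WT + SD, 7 members were lower and 2 higher, with a median of -0.38, against 0.050 over all names and -0.076 over the 964 names. Here 2 of 9 members passed 1.5-fold, Cldn11 as higher and Ugt8a as lower, against 24.9% of all names (17.1% higher and 7.82% lower) and 28.1% of the 964 names. Neither count of called members is far from the share of all names. The comparisons under vehicle and under SD do not share a library.

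**Figure D2:**
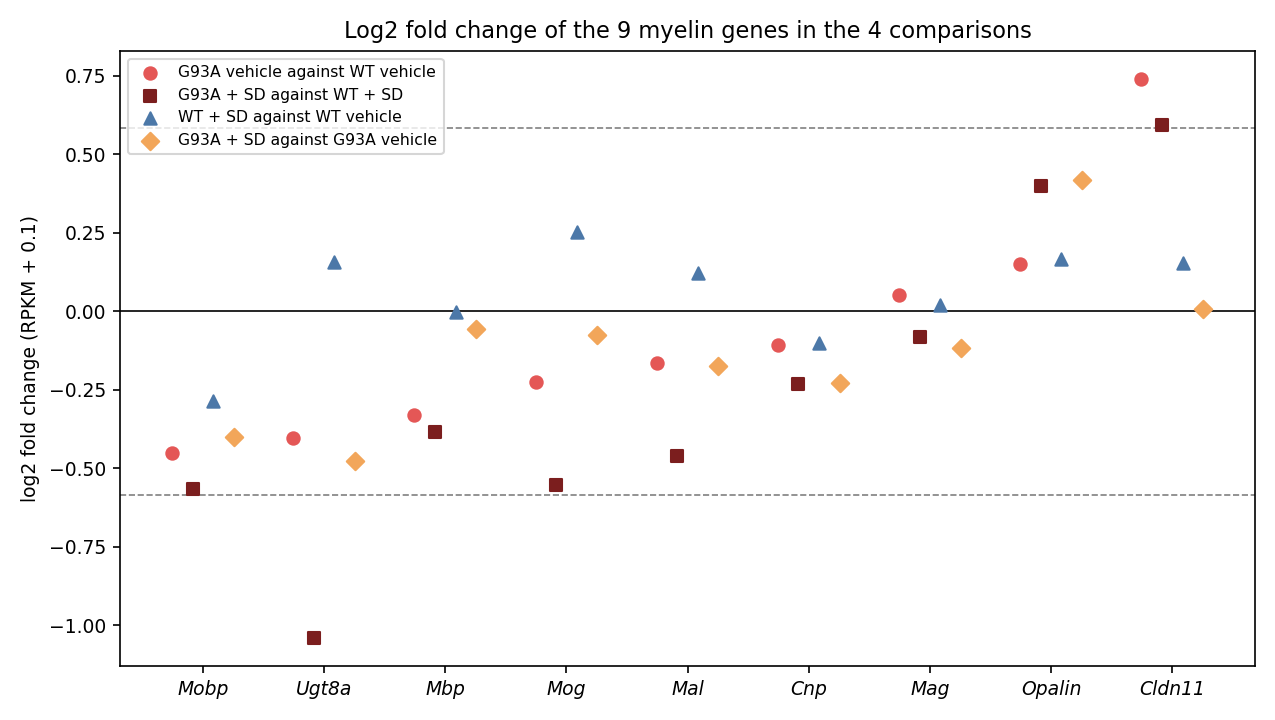
Log2 fold change (RPKM + 0.1) of each member in the 4 comparisons, with members in the order of G93A vehicle against WT vehicle and dashed lines at 1.5-fold. The genotype comparisons run from -1.04 for Ugt8a to 0.74 for Cldn11, and no member crosses a dashed line in the comparisons of SD with vehicle.

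Among the proteins of compact myelin, Mbp was 1.26-fold lower in G93A than in WT under vehicle and 1.30-fold lower under SD. Its 8 rows are transcripts of 1 gene and largely count the same reads, and their log2 fold changes lay between -0.33 and -0.29 in the first comparison and between -0.48 and -0.38 in the second. Of these rows, 2 begin 79.3 to 79.4 kb upstream of the other 6, at the start of the longer Golli transcripts. The row NM_010777 runs from there to the end of the gene and had values like those of the 6, whereas NM_001025245 ends at base 82558703, before the last exons. It had 277 RPKM in WT vehicle and 284 in WT + SD, against 226 in G93A vehicle and 204 in G93A + SD, much below the 3412 to 5695 RPKM of the other rows.

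Mobp, a small basic protein of compact myelin, had 262 RPKM in WT vehicle and 215 in WT + SD, against 192 in G93A vehicle and 145 in G93A + SD. It was lower in each step of this order, and its 3 rows gave log2 fold changes of -0.48 to -0.40 for G93A vehicle against WT vehicle. G93A + SD was 1.48-fold below WT + SD, just short of the threshold. It was the only member that differed by more than 1.2-fold between the WT libraries, at a log2 fold change of -0.29, against -0.45 between the genotypes under vehicle.

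Mal, a proteolipid that takes part in the sorting of membrane to myelin, had 228 RPKM in WT vehicle and 248.8 in WT + SD, against 204 in G93A vehicle and 181 in G93A + SD. Both G93A values lay below both WT values, by 1.12-fold under vehicle and 1.38-fold under SD.

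Cldn11 encodes the claudin that forms the tight junctions between the lamellae of central myelin, and it is also known from arachnoid barrier cells. It had 195 RPKM in WT vehicle and 217 in WT + SD, against 326 in G93A vehicle and 327 in G93A + SD. It was 1.67-fold higher in G93A than in WT under vehicle and 1.51-fold higher under SD. It was the only member with both G93A libraries above both WT libraries, a pattern of 37.9% of the 964 names at 50 RPKM or more. The call under SD was lost with median-ratio scaling, where the log2 fold change was 0.53, while Mobp (-0.63) and Mog (-0.62) then passed 1.5-fold as lower. Genes of the leptomeninges, a list written after the values of Cldn11 had been seen, were at least 1.5-fold higher in G93A for 3 of 7 under vehicle and for 2 of 7 under SD, and none was lower by that fold. Only Col1a1 was called in both, the median of the list was -0.026 under vehicle and 0.49 under SD, and 4 and 2 of the 7 were lower by any amount. Their summed level was 203 RPKM in WT vehicle and 263 in WT + SD, against 308 in G93A vehicle and 243 in G93A + SD, mostly from Ptgds, which oligodendrocytes also express. Of the others, Dcn was the highest with 5.52 and 6.98 RPKM in the WT libraries and 5.42 and 9.85 RPKM in the G93A libraries, and Slc22a6 was listed at 0 in G93A vehicle and reached at most 0.013 RPKM. The part of these cells in the value of Cldn11 was not tested.

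At the outer face of the sheath, Mog, an immunoglobulin family protein used as a marker of mature oligodendrocytes, had 126 RPKM in WT vehicle and 150 in WT + SD, against 108 in G93A vehicle and 102 in G93A + SD. WT + SD stood above the other libraries, and the log2 fold change between genotypes was -0.23 under vehicle and -0.55 under SD.

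Of the members in the parts of the sheath that keep cytoplasm, Cnp and Mag differed little. Cnp, the cyclic nucleotide phosphodiesterase that keeps cytoplasmic channels open, had 395 RPKM in WT vehicle and 368 in WT + SD, against 367 in G93A vehicle and 313 in G93A + SD. Mag, the adhesion protein of the adaxonal membrane that faces the axon, had 244, 247, 253 and 234 RPKM in the same order, the narrowest range of the 9 members as a fold. Its log2 fold change of 0.053 in G93A vehicle against WT vehicle turned to -0.011 with median-ratio scaling, so that no direction can be given.

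Opalin, a membrane protein of the paranodal loops, was the lowest member by level and was highest in G93A + SD. It had 29.0 RPKM in WT vehicle and 32.6 in WT + SD, against 32.2 in G93A vehicle and 43.0 in G93A + SD. Its values in WT + SD and G93A vehicle were nearly equal, and G93A + SD was 1.32-fold above WT + SD and 1.34-fold above G93A vehicle. The value of Opalin in WT vehicle rested on an estimated 1962 fragments, the lowest number for any row of a member, which corresponds to a counting error of 2.26% and covers neither animals nor library preparation.

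Ugt8a encodes the ceramide galactosyltransferase that makes galactosylceramide, the main galactolipid of myelin. It had 125 RPKM in WT vehicle and 140 in WT + SD, against 94.6 in G93A vehicle and 68.0 in G93A + SD. It was 1.32-fold lower in G93A than in WT under vehicle and 2.06-fold lower under SD, the largest fold of any member in any of the 4 comparisons. When the other WT library was taken as the control, the log2 fold changes were -0.56 and -0.88.

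Ratios between members inside a library do not depend on how the libraries were scaled. Cldn11 per Mobp was 0.744 in WT vehicle and 1.01 in WT + SD, against 1.70 in G93A vehicle and 2.25 in G93A + SD. Cldn11 per Ugt8a was 1.55 in both WT libraries, 3.44 in G93A vehicle and 4.81 in G93A + SD. Opalin per Ugt8a was 0.231, 0.233, 0.340 and 0.633 in the same order of libraries. Mag per Cnp ranged only from 0.618 to 0.745. The pairs with Cldn11 and Opalin were chosen for the members that were highest and lowest in G93A, so their direction follows from that choice. Per 100 RPKM of Mbp, Ugt8a was at 2.68, 2.999, 2.55 and 1.90, Mobp at 5.61, 4.61, 5.16 and 4.06, and Mag at 5.23, 5.30, 6.82 and 6.53 in the same order of libraries.

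**Figure D3:**
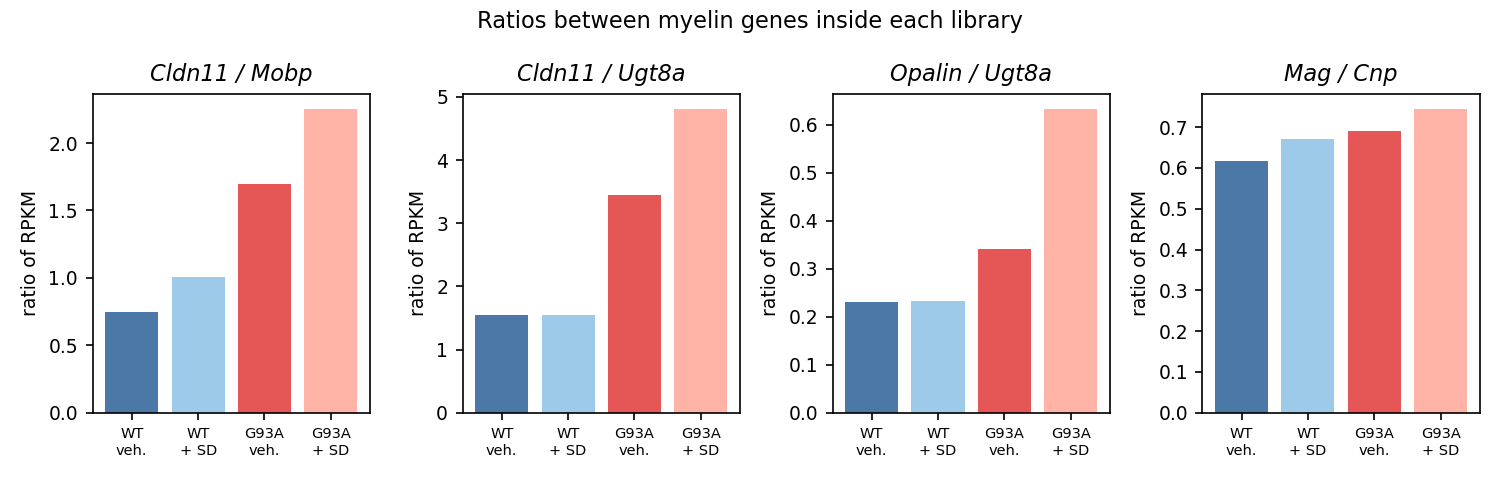
Ratio of RPKM between pairs of members inside each of the 4 libraries, on linear axes from 0, with 1 library per bar. Cldn11 per Ugt8a was 1.55 in both WT libraries and 4.81 in G93A + SD, whereas Mag per Cnp stayed between 0.618 and 0.745.

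The second question was how SD compares with vehicle within a genotype. In WT + SD against WT vehicle, 6 members were higher and 3 lower, and the median was 0.12 on the log2 scale, against 0.0044 over all names. In G93A + SD against G93A vehicle, 2 members were higher (Opalin and Cldn11) and 7 lower, with a median of -0.12, against 0.0068 over all names and -0.038 over the 964 names at 50 RPKM or more. None of the 9 members reached 1.5-fold in either comparison, against 5.04% of all names in WT (2.25% higher and 2.8% lower) and 5.52% in G93A (2.97% higher and 2.55% lower). Among the 964 names the shares were 0.622% in WT and 1.45% in G93A. In WT the largest differences were those of Mobp (-0.29) and Mog (0.25). In G93A they were those of Ugt8a (-0.48), Opalin (0.42) and Mobp (-0.40), and Cldn11 differed by 0.0067, a value whose sign turned with median-ratio scaling. Each of these comparisons shares a library with each comparison of the genotypes.

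The difference of the SD comparisons, G93A minus WT, had a median of -0.14 over the members on the log2 scale. It was -0.63 for Ugt8a, which was higher with SD in WT and lower with SD in G93A, and 0.25 for Opalin, which was higher with SD in both. With 4 single libraries this difference has no error and was not tested.

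G93A + SD was the lowest library for 7 members and WT vehicle for the other 2 (Cldn11 and Opalin). Among the 964 names with a mean of at least 50 RPKM, G93A + SD was lowest for 47.1% and WT vehicle for 24.7%. Mbp, Mog, Mobp, Cnp, Mal and Ugt8a were below both WT libraries in G93A vehicle and lower again in G93A + SD, which is 6 of 9 members against 41.0% of the 964 names. The names of at least 50 RPKM nearest to the median profile of the members, by Euclidean distance over the 4 centred log2 values, included Ndufv2, Otub1, Bin1 and Ndufa4, at distances of 0.037 to 0.044. The members themselves lay between 0.11 (Mal) and 0.92 (Cldn11) from their own median profile. The nearest names were picked from 956 for their small distances, so the distances of the members cannot be judged against them.

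Other genes of the myelin sheath did not all follow Mbp. Of 18 such proteins, 1 was at least 1.5-fold higher and 0 lower under vehicle, and 2 were higher and 2 lower under SD, with medians of 0.070 and 0.014. Hapln2, a link protein of the nodes, was among the lower ones and is named because it passed. Cd9, a tetraspanin that many glial cells express, was the one higher in both, with 40.4 RPKM in WT vehicle and 47.0 in WT + SD, against 194 in G93A vehicle and 211 in G93A + SD. Plekhb1, a membrane-associated protein of the sheath, had 533, 573, 563 and 537 RPKM in the same order and Sept4, a septin, 179, 185, 170 and 170 RPKM.

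Gjc3 and Gjb1 encode connexins that oligodendrocytes express, and both were lower in both genotype comparisons. Gjc3 had 44.2, 48.5, 33.8 and 31.1 RPKM in the same order of libraries and was at least 1.5-fold lower only under SD. Gjb1 had 51.8, 44.2, 40.7 and 30.3 RPKM and passed that fold in neither.

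Of 12 lipid enzymes other than Ugt8a, 8 were lower by any amount in G93A under vehicle and none reached 1.5-fold. Under SD again 8 were lower, and 3 reached 1.5-fold (Fa2h, Enpp2 and Elovl7, the last named because it passed). Fa2h, the hydroxylase of the fatty acids found in myelin galactolipids, had 69.1 RPKM in WT vehicle and 70.9 in WT + SD, against 52.2 in G93A vehicle and 36.3 in G93A + SD, an order like that of Ugt8a. Enpp2, which makes lysophosphatidic acid, had 184, 217, 162 and 131 RPKM, and Scd2, a fatty acid desaturase, had 784, 736, 618 and 559 RPKM. Lass2, the name in the table for Cers2 (the synthase of very long chain ceramides), had 67.0, 70.8, 74.2 and 72.4 RPKM in the same order. Gltp, a glycolipid transfer protein, had 66.4, 69.8, 94.5 and 90.7 RPKM.

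Most transcription factors of the lineage differed little. Of 10, none was at least 1.5-fold lower and 2 were higher by that fold in each genotype comparison, Zfp488 and Tcf7l2, which are named because they passed and were at most at 2.12 and 1.74 RPKM. Sox10 had 33.2 RPKM in WT vehicle and 32.2 in WT + SD, against 34.0 in G93A vehicle and 30.8 in G93A + SD. Myrf, listed as Gm98, had 37.1, 38.5, 43.4 and 41.0 RPKM, and Olig1 had 74.4, 69.0, 64.0 and 60.0 RPKM.

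Of 7 precursor markers, 1 (Sox6) was at least 1.5-fold higher under vehicle and 3 were so under SD, with medians of 0.34 and 0.44. By any amount, 1 of the 7 was lower under vehicle and 0 under SD, against 42.5% and 42.9% of all names. Of 8 markers of newly formed oligodendrocytes, 3 were at least 1.5-fold higher under vehicle and 5 under SD, and 2 were lower by any amount in each comparison. Gpr17, a receptor of cells about to differentiate, had 10.4 RPKM in WT vehicle and 11.1 in WT + SD, against 16.8 in G93A vehicle and 18.9 in G93A + SD. The 2 lower markers were Bcas1 and Enpp6 in both comparisons. Bcas1, which is also made by myelinating cells, had 175, 207, 145 and 151 RPKM in the same order of libraries. Enpp6 had 15.2, 15.7, 12.9 and 12.6 RPKM.

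**Figure D4:**
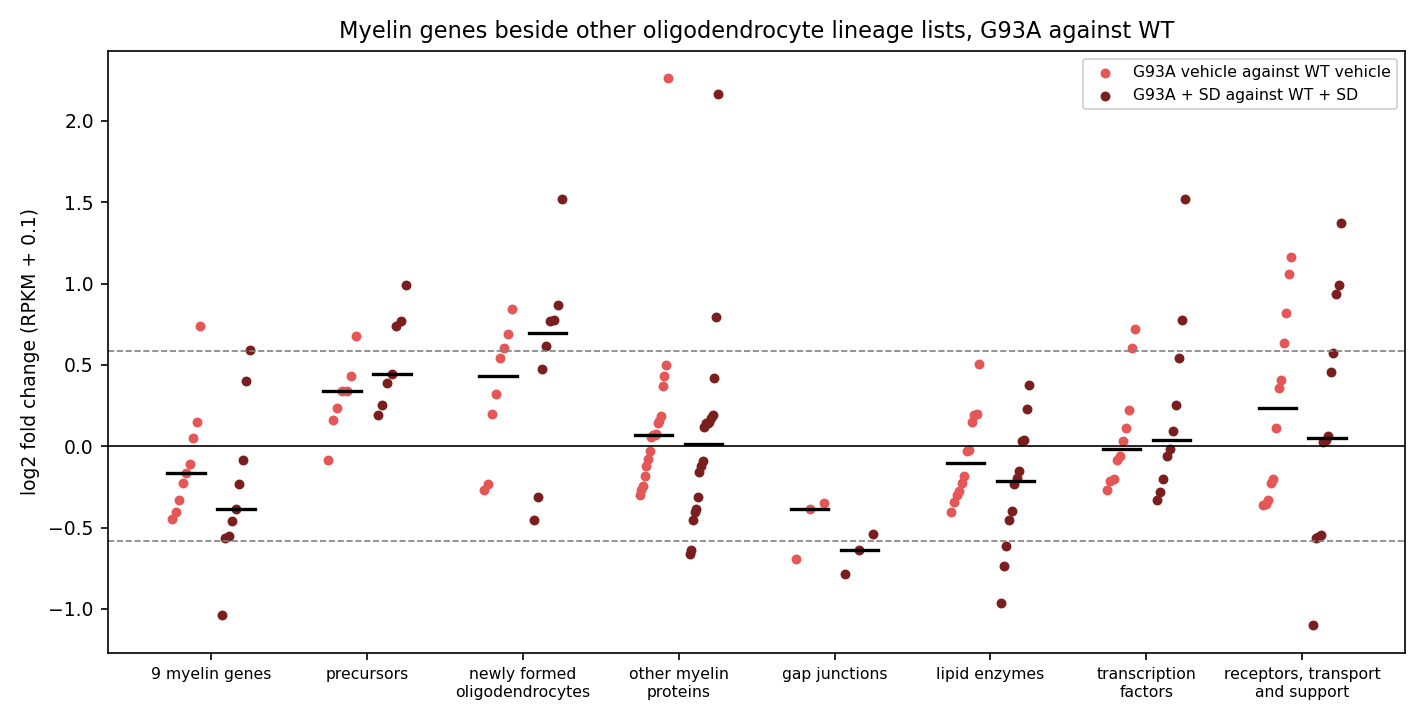
Log2 fold change (RPKM + 0.1) of the 9 members and of the genes of 7 other oligodendrocyte lists in the genotype comparisons under vehicle and under SD. Each point is a gene, black lines are medians and dashed lines mark 1.5-fold; the medians were -0.16 and -0.38 for the members and 0.34 and 0.44 for precursors.

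Of 12 genes for receptors, transport and support in oligodendrocytes, 4 were at least 1.5-fold higher and 0 lower under vehicle, and 3 were higher and 1 lower under SD. Among all names, 14.4% were higher and 5.31% lower by that fold under vehicle, and 17.1% and 7.82% under SD. The medians of the list were 0.24 and 0.050, and 5 and 4 of the 12 were lower by any amount. Trf, transferrin, had 704 RPKM in WT vehicle and 731 in WT + SD, against 1244 in G93A vehicle and 1090 in G93A + SD. Klk6, a secreted protease, had 97.9, 101, 220 and 262 RPKM in the same order. Gpr37, a receptor, instead had 71.2, 78.9, 55.7 and 53.4 RPKM. Of 7 genes that oligodendrocytes and other glia express under stress, 6 were at least 1.5-fold higher under vehicle and 7 under SD, with Serpina3n, a protease inhibitor, at 27.9, 24.5, 473 and 772 RPKM. Of the regulators of myelin growth, 4 of 10 were at least 1.5-fold higher and 2 lower under vehicle, and 4 were higher and 1 lower under SD. These were Gpr17, Egfr, Erbb2 and Igf1 as higher in both, Nrg1 as lower in both and Erbb4 as lower under vehicle, named because they passed the threshold.

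Markers of other cells moved with the genotype too, and their part in the values of the members was not tested. The 8 microglial markers summed to 79.4 and 73.6 RPKM in the WT libraries and to 459 and 456 RPKM in the G93A libraries, with 7 of 8 at least 1.5-fold higher under vehicle and under SD. The 8 astrocyte markers summed to 1461 and 1404 RPKM in WT and to 3492 and 4052 RPKM in G93A, with 5 of 8 higher by that fold under vehicle and 6 under SD. The 9 motor neuron markers summed to 1831 and 1750 RPKM in WT and to 979 and 631 RPKM in G93A, with 5 lower by that fold under vehicle and 7 under SD. Schwann cells of the nerve roots also express Mbp, Mag, Mal and Cnp. Of 8 Schwann cell markers, 3 were at least 1.5-fold higher and 1 lower under vehicle and 3 higher and 0 lower under SD, and they summed to 64.6 and 65.5 RPKM in WT and to 94.9 and 91.5 RPKM in G93A, mostly from Pmp22. Among them Prx, a protein of peripheral myelin that is named after its values were seen, lay between 0.13 and 0.44 RPKM in all libraries.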

How the data were processed

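The members and the lists of other genes were chosen with earlier results of these data known. In the paper's methods, reads of polyA RNA were aligned to GRCm38 by STAR, and HTSeq counted them over Ensembl genes. Yet the deposited table has a non-whole value for each RefSeq transcript and library (23750 rows, 18674 gene names), and its header states no unit. The values deposited by the authors were taken as RPKM, since value times transcript length gave almost equal totals across libraries. The 3 ratio columns that the authors deposited were not used.

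The value of a name is the mean of its rows. Fold changes were computed on log2(RPKM + 0.1), and a name counted as called at 1.5-fold in either direction, with no filter on low values. With 1 library per condition there are no replicates, and no test was run. Transcript lengths came from GENCODE M21 for 97.0% of rows. The value of 1 sequenced fragment (a read or a read pair, which the sources do not settle) was taken as the most common RPKM times length among low rows, which gave an estimate of 36800000 to 38600000 sequenced fragments per library. Of the list genes, Myrf, Cers2, Map2 and Ncmap were matched through RefSeq synonyms, and Rbfox3 had no row. Some genes of the lists and of the nearest profiles are not reported here by name. Genes named are the 9 members, up to 6 genes of a list with the highest means, names among the 5 nearest profiles and genes said to be chosen after their values were seen. Promoters came from RefSeq (GRCm38.p6), with entries for 8 of 9 members used. The alternatives were other pseudocounts, scalings, row summaries, thresholds, filters and controls. Values were computed in Python 3.11.15 with matplotlib 3.10.9, pandas 2.3.3 and numpy 2.4.6, and the computation was tested on simulated data.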

Additional observations from a re-analysis of the deposited data

Results flagged for a closer look

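For 4 members, SD and vehicle differed in opposite directions in the 2 genotypes, with 1 library on each side, and the difference was not tested. The log2 fold change with SD in G93A minus that in WT was -0.63 for Ugt8a, -0.33 for Mog, -0.30 for Mal and -0.14 for Mag. In each of the 4 genes the value with SD was higher than with vehicle in WT and lower in G93A. For Mag the log2 fold change in WT was only 0.019. Over all names, 45.9% were lower with SD in WT and 46.6% in G93A. The share of all names with opposite directions is not given here, so the 4 members cannot be set against it. No group had enough samples to look for a sample far from the others.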

How the results depend on the processing

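Pseudocounts of 1 RPKM and of 0, both scalings, the sum of rows and the highest row left the median log2 fold change of the members between -0.23 and -0.16 for G93A vehicle against WT vehicle, -0.45 and -0.38 for G93A + SD against WT + SD, 0.11 and 0.13 for WT + SD against WT vehicle, and -0.13 and -0.12 for G93A + SD against G93A vehicle. Median-ratio scaling shifted the log2 fold changes by -0.064 for the genotypes under vehicle and by -0.066 under SD. With a threshold of 1.2-fold in place of 1.5-fold, the members called numbered 4, 7, 1 and 3 in these comparisons in the same order, against 47.9%, 53.2%, 19.3% and 23.1% of all names. With 2-fold they numbered 0 under vehicle and 1 under SD between the genotypes, against 8.45% and 11.1% of all names. Without Mbp the log2 ratio of the summed levels was -0.026 in place of -0.25 for G93A vehicle against WT vehicle and -0.20 in place of -0.33 for G93A + SD against WT + SD. The share of all names called in the SD comparisons was 1.89% in WT and 2.17% in G93A among names with a mean of at least 1 RPKM, and 0.622% and 1.45% at 50 RPKM or more. With the other WT library as control, the log2 fold changes for G93A vehicle were -0.16 for Mobp, -0.48 for Mog and -0.018 for Opalin, whose sign turned, and for G93A + SD they were -0.85 for Mobp, which then passed 1.5-fold, and -0.30 for Mog. Without Cldn11, an alternative chosen after seeing the data, the medians were -0.19, -0.42, 0.071 and -0.14 in the same order of comparisons. Differences between animals, dissection and library preparation cannot be told apart from genotype or SD. No paired analysis was possible because each condition has 1 library.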
